A study of Canis lupus familiaris with 10 samples.

Results

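The genes described here are the potassium channel genes of the dog, taken as every gene symbol in the deposited table that starts with KCN. These were 69 of 23266 symbols and comprise pore-forming channel subunits together with their accessory subunits. They were examined in canine cutaneous histiocytoma (CCH). This skin tumor of dogs arises from Langerhans cell precursors, is benign and mostly regresses on its own. Expression was measured by QuantSeq 3′, which reads a short fragment near the polyadenylated end of each transcript, in formalin-fixed, paraffin-embedded (FFPE) tumors of privately owned dogs. The early group held 5 tumors of histological group 1 of the Cockerell & Slauson scheme, from dogs of 0.5 to 5 years (age given for 4). The late group held 5 tumors of group 3, labeled as enriched in lymphocytes, from dogs of 1.5 to 9 years. None of the labels names a treatment or a genotype. RNA came from whole tumor cross sections freed of adjacent tissue, so that each library mixes histiocytic tumor cells, infiltrating leukocytes and stroma.

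Potassium channels let potassium leave or enter the cell along its gradient and thereby set the membrane potential. Voltage-gated channels open on depolarization, calcium-activated channels on a rise of intracellular calcium, inward rectifiers pass current best near the resting potential, and tandem pore channels of the K2P group conduct a background leak. In lymphocytes, the outflow of potassium keeps the membrane negative and thus sustains calcium entry after antigen recognition. In macrophages and microglia, potassium efflux precedes activation of the NLRP3 inflammasome.

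The libraries held 2973125 to 4439709 reads assigned to genes, with 931 to 1825 reads on KCN genes. Library numbers (1 to 5 in each stage) are names without further meaning, because the table shows the stage of a column but not its sample. The share of RNA fragments over the DV200 length was 68.5% ± 2.46 for early and 73.2% ± 2.09 for late tumors according to the labels (SD, n = 5 each). It ranged from 64.5% to 71.2% in early and from 71.2% to 75.8% in late tumors, so that RNA quality and stage cannot be told apart. In the study, no RNA extraction batch held both stages, so that these cannot be told apart. Values are normalized read counts, that is, reads divided by a size factor per library. A count of 0 allows up to 3 reads, which correspond to a value of 2.36 to 3.22 depending on the library.

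Of the 69 KCN genes, 15 (21.7%) were expressed, meaning that 5 or more libraries had a value of 10 or higher, and 54 were not. Among all genes in the table, 53.3% reached this level. The expressed members were KCNA3 and KCNQ1 of the voltage-gated channels (2 of 23), KCNN4 of the calcium- or sodium-activated channels (1 of 8), KCNJ10 and KCNJ12 of the inward rectifiers (2 of 11) and KCNK1, KCNK5, KCNK6 and KCNK13 of the K2P channels (4 of 12). The accessory subunits KCNAB2, KCNE3, KCNE4, KCNIP2, KCNMB3 and KCNMB4 completed the list (6 of 15). A value of at least 10 in all 10 libraries was reached by 7 members.

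**Figure D1:**
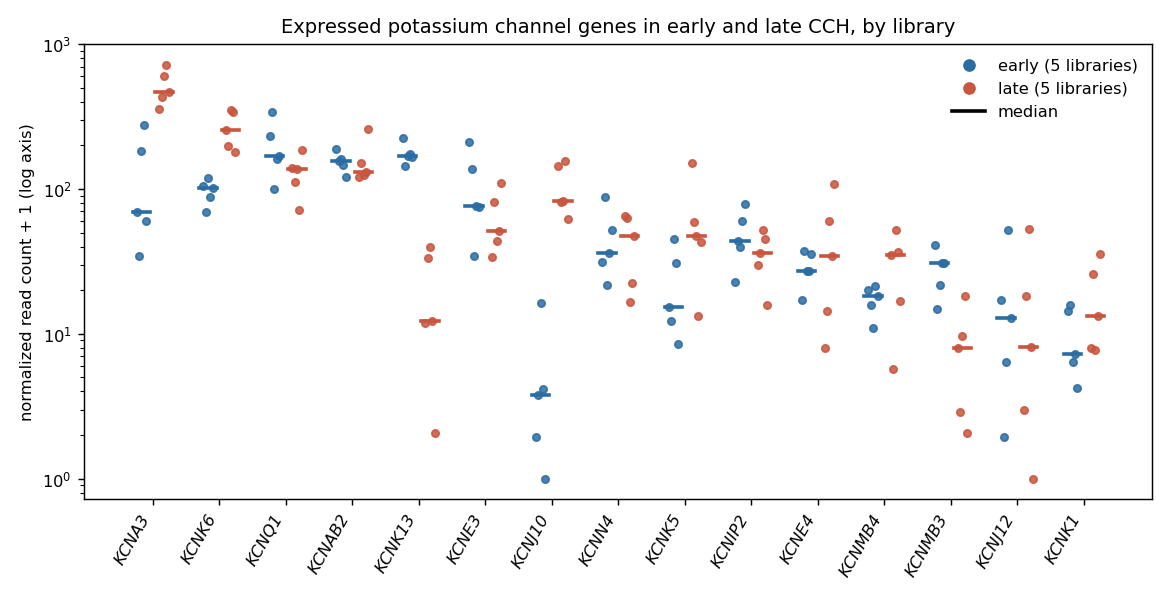
Normalized read count plus 1 (logarithmic axis) of the 15 expressed KCN genes in 5 early (blue) and 5 late (red) libraries, ordered by mean value, with a bar at the median of each stage. Late points of KCNA3, KCNK6 and KCNJ10 all lie above the early points, and those of KCNK13 all lie below.

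The question put to these genes was whether they differed between late and early CCH. KCNJ10 and KCNK6 were called higher in late CCH and KCNK13 was called lower, by limma with Benjamini-Yekutieli (BY) adjustment. A call required an adjusted p not above 0.05 and an absolute log2 fold change (log2FC) not below 1. Over all 12397 genes tested, 1.06% were called higher, 1.11% lower and 2.17% in either direction. The other 12 expressed members did not pass. The median log2FC of the 15 was -0.02, beside -0.004 over all genes tested, and 7 were above and 8 below 0. All late values lay above all early values for 3 of the 15 (5.91% of all genes tested) and below them for 1 (6.05% of all genes tested). The log2FC was at least 1 in size for 6 members (15.9% of all genes tested). An unadjusted p of at most 0.05 was found for 6 members (30.9% of all genes tested). With the less strict Benjamini-Hochberg (BH) adjustment 5 would be called (9.04% of all genes tested). A positive log2FC means higher in late CCH. It is the difference of mean log2(value + 1), which draws low values together, and need not equal the ratio of the means printed beside it. In a bulk sample, fewer cells of a type cannot be told apart from less RNA per cell.

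**Figure D2:**
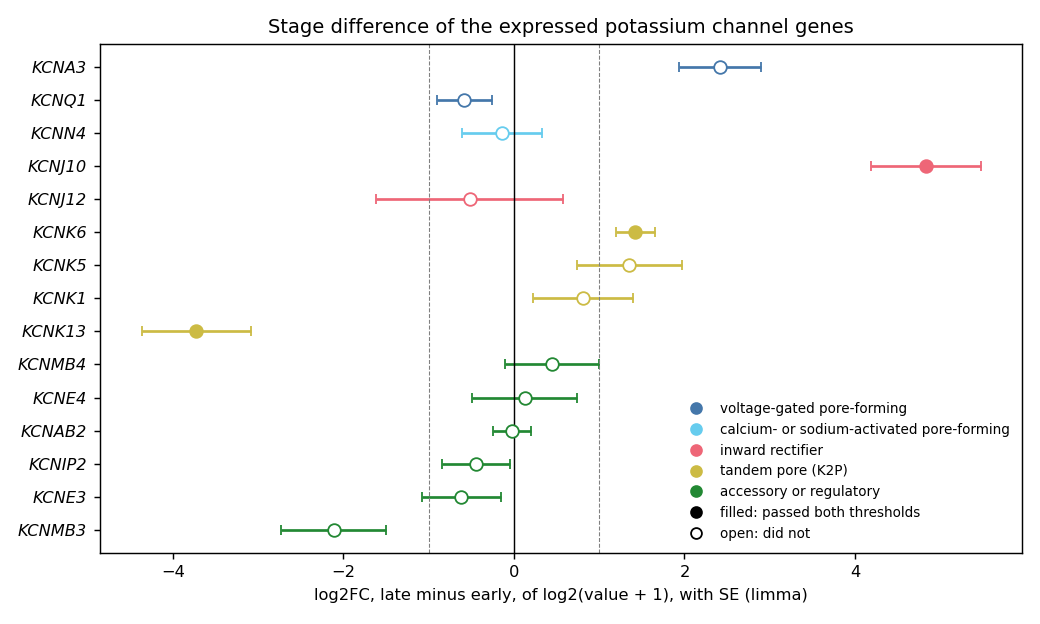
Log2FC of late minus early CCH with its SE from limma for the 15 expressed KCN genes (5 early and 5 late libraries), grouped by channel class. Filled points (KCNJ10, KCNK6 and KCNK13) passed both thresholds, open points did not, and dashed lines mark a log2FC of 1 in size.

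Among the pore-forming channels, the inward rectifier KCNJ10 showed the largest difference. It encodes Kir4.1, best known for potassium buffering by glial cells and for potassium recycling in the kidney. Its early values were 0.952, 2.79, 15.4, 3.15 and 0, and its late values were 143, 79.9, 81.4, 155 and 60.9. Every late library was thus far above every early library, and early library 3 was the only early library with a value over 10. The late libraries alone were enough for the gene to pass the expression filter. In a fit without the filter on low values its adjusted p was 0.0143 (limma, BY). The mean was 23.4 times as high in late as in early CCH, and the log2FC was 4.83 ± 0.64 (SE, adjusted p = 0.0138, limma). It ranked sixth among the rises of all genes tested. The early libraries together held 25 reads of KCNJ10 and the late libraries 522. Without late library 1, 2 or 4 the adjusted p lay between 0.0504 and 0.0603, and without any other single library the gene was called. Of the genes that mark Schwann cells and glia, SOX10, S100B, CDH19 and GFRA3 had mean values under 3 in both stages, while NGFR had a mean of 1.67 in early and 6.95 in late CCH. The 4 that were tested (MBP, PMP22, ERBB3 and FABP7) were called in neither direction, and FABP7 had lower values in every late than in every early library (means 21.6 and 4.2). The summed value of the 10 listed glial genes in the table was 177 to 269 in early and 200 to 289 in late libraries, most of it from MBP and PMP22. The part of these cells in the value of KCNJ10 was not tested.

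KCNJ12, which encodes the inward rectifier Kir2.2 of muscle, varied from library to library without regard to stage. Its values were 16.2, 0.930, 5.43, 51.2 and 11.8 in early and 1.99, 17.1, 52.3, 7.16 and 0 in late CCH. With a log2FC of -0.52 ± 1.10 (SE), its 95% interval reached from -2.90 to 1.86. In man this gene has a near-identical copy. In the study, reads that mapped to several places were kept and their counts shared evenly among those places. Whether reads of KCNJ12 had other mapping places in the dog cannot be seen from the table. The remaining 9 inward rectifier genes were not expressed. They include KCNJ2, which encodes Kir2.1 of macrophages and muscle, with values of 8.57, 2.79, 5.43, 0 and 2.15 in early and 7.95, 11.4, 0, 6.14 and 3.15 in late CCH.

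The K2P channels went in both directions. KCNK13 encodes THIK-1, a leak channel known for setting the resting potential of microglia. Its values were 224, 144, 169, 175 and 164 in early and 10.9, 32.3, 38.7, 11.2 and 1.05 in late CCH. The early libraries were close to each other, whereas the late libraries ranged from 1 read to 40 reads and all lay below them. The early mean was 9.29 times the late mean, and the log2FC was -3.73 ± 0.64 (SE, adjusted p = 0.0421, limma), the twelfth largest fall of all genes tested. The call rested on most of the libraries: it was kept without late library 3 or 5 and lost without late library 1, 2 or 4 or any of the early libraries 1 to 5, with an adjusted p of 0.0615 to 0.141. Because the stages did not overlap, leaving out a library could neither create overlap nor reverse the direction. The log2FC stayed between -4.12 and -3.06.

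KCNK6 encodes TWIK2, a channel known as a route of potassium efflux in macrophages. Its values were 105, 68.9, 119, 86.6 and 101 in early and 254, 198, 352, 337 and 178 in late CCH. All late libraries were above all early libraries, and the early values kept within a narrow range. The mean was 2.75 times as high in late CCH, with a log2FC of 1.42 ± 0.23 (SE, adjusted p = 0.0318, limma). The call was kept without early library 2, early library 3 or late library 5, and without any other single library the adjusted p was 0.0558 to 0.113. The tested genes of the macrophage list, 8 of 9 of which had a positive log2FC, were called in neither direction, and their list summed to 2774 to 11072 in early and 6122 to 14214 in late libraries. The part of these cells in the value of KCNK6 was not tested.

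KCNK5 encodes TASK-2, a leak channel sensitive to extracellular pH. It had values of 14.3, 11.2, 44.3, 29.9 and 7.51 in early and 151, 58.0, 46.5, 12.3 and 42.0 in late CCH. Late library 1 was the highest and late library 4 lay within the early range, so that the stages overlapped. The log2FC was 1.36 ± 0.62 (SE, adjusted p = 1, limma) with a 95% interval from 0.02 to 2.70. KCNK1, which encodes TWIK1, was weakly expressed at 3.22 to 14.9 in early and 6.78 to 34.6 in late CCH (log2FC 0.81 ± 0.59, SE). The other 8 K2P genes were not expressed.

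Among the voltage-gated channels, KCNA3 was the most abundant KCN gene by mean value. It encodes Kv1.3, the principal voltage-gated potassium channel of T cells, which is also found in other leukocytes. Its values were 68.5, 33.5, 182, 276 and 59.0 in early and 355, 431, 603, 722 and 467 in late CCH. The lowest late library exceeded the highest early library, and early libraries 3 and 4 stood above the other early libraries. The mean was 4.16 times as high in late CCH, with a log2FC of 2.41 ± 0.48 (SE) and a 95% interval from 1.38 to 3.45. With an adjusted p of 0.0704 (limma, BY), KCNA3 was not called. Without early library 4 it was called with an adjusted p of 0.0279, and without any other single library the adjusted p was 0.0603 to 0.231.

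Markers of T cells were set beside KCNA3. The summed value of the 12 listed T-cell genes was 83.8, 834, 2576, 1773 and 289 in early and 5974, 4655, 3948, 6677 and 5664 in late libraries 1 to 5. Early libraries 3 and 4, with the highest KCNA3 values of their stage, also had the highest T-cell sums of their stage, but early library 2, with a sum of 834, had the lowest KCNA3 value. In the late stage the orders differed: library 3 had the lowest T-cell sum and a KCNA3 value of 603, and library 1 had a sum of 5974 and the lowest KCNA3 value of 355. All 12 genes had a positive log2FC (median 3.40), and of these only CD6 was called in limma with BY adjustment. The part of T cells in the value of KCNA3 was not tested.

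Markers of Langerhans and dendritic cells were likewise set beside KCNK13, and several of them were also lower in late CCH. FLT3 and FCER1A were called lower in late CCH (limma, BY), with early means 7.19 and 6.54 times the late means. CD1A8, which encodes a CD1a molecule of Langerhans cells, had an early mean 10.7 times its late mean and was not called (adjusted p = 0.171). For these 3 genes, as for KCNK13, all late libraries lay below all early libraries. Within a stage the orders differed. Early library 1, highest in KCNK13, was the highest early library in FLT3 (447) but the lowest in FCER1A (46.6). Late library 3 was the highest late library in KCNK13, CD1A8 and FLT3. Late library 5, lowest in KCNK13, had a CD1A8 value of 26.2, whereas late library 4 had 0. ITGAX and BATF3 overlapped between the stages. CCR7 went the other way, with all late libraries above all early libraries and a log2FC of 2.38 (not called). CD1C, which was not tested, overlapped and had a mean of 3.55 in early and 7.20 in late CCH. Of the 6 genes of this list that were tested, 5 had a negative log2FC. The summed value of the 7 listed genes in the table was 1084, 820, 2486, 1873 and 1959 in early and 1131, 744, 1051, 710 and 754 in late libraries, with ITGAX as its largest part by mean in both stages. CD207, which encodes langerin, is not among the symbols used here. The part of these cells in the value of KCNK13 was not tested.

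**Figure D3:**
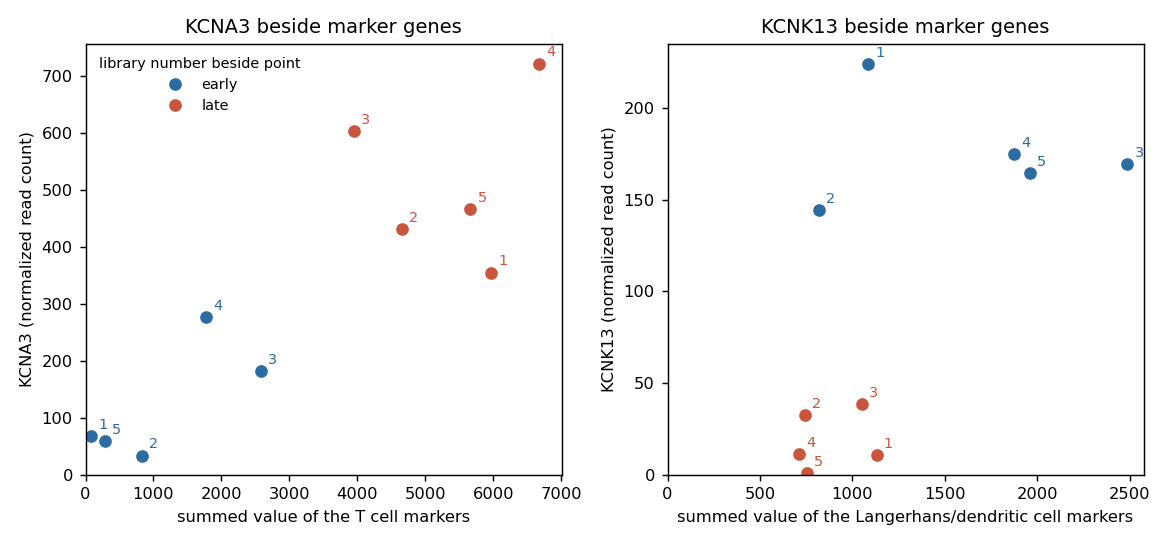
Left, normalized read count of KCNA3 against the summed value of 12 T-cell genes. Right, KCNK13 against the summed value of 7 Langerhans and dendritic cell genes. Each point is 1 library, blue for early and red for late, with its number beside it. Late libraries have T-cell sums of 3948 or more and KCNA3 values of 355 or more. On the right, the largest part of the sum is ITGAX, which overlaps between the stages. CD1A8, FLT3 and FCER1A separate them as KCNK13 does, whereas CCR7 separates them in the opposite direction.

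KCNQ1 encodes Kv7.1, a channel of heart muscle and epithelia that works with subunits of the KCNE family. It had values of 230, 339, 99.5, 161 and 167 in early and 138, 110, 138, 70.6 and 186 in late CCH. The stages overlapped, and the log2FC was -0.58 ± 0.32 (SE) with a 95% interval from -1.28 to 0.12. In the RefSeq annotation of the newer dog assembly UU_Cfam_GSD_1.0, an unnamed noncoding transcript and a pair of miRNA genes overlap KCNQ1, and reads of these cannot be separated from it without knowledge of the strand setting used in counting.

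KCNN4 encodes KCa3.1, the calcium-activated channel that lymphocytes use beside Kv1.3. Unlike KCNA3, it did not separate the stages. Its values were 30.5, 86.5, 20.8, 35.4 and 51.5 in early and 63.6, 61.8, 15.5, 21.5 and 46.2 in late CCH. The log2FC was -0.14 ± 0.47 (SE, adjusted p = 1, limma), and its 95% interval from -1.16 to 0.88 does not reach the log2FC of KCNA3. The difference between the effects on these genes was not tested. The other 7 genes of this class were not expressed.

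The accessory subunits included no call in either direction (limma, BY). At an unadjusted p of at most 0.05, 1 of the 6 was lower in late CCH. This was KCNMB3, which encodes a beta subunit of BK channels, with values of 40.0, 14.0, 20.8, 29.9 and 30.1 in early and 6.96, 1.90, 8.72, 17.4 and 1.05 in late CCH. Of the late libraries, 4 lay below all early libraries and late library 4 lay within the early range. The log2FC was -2.11 ± 0.62 (SE, BY-adjusted p = 0.363, limma). Its sister subunit KCNMB4 had values of 19.0, 14.9, 9.95, 20.5 and 17.2 in early and 33.8, 4.76, 51.3, 35.8 and 15.7 in late CCH. It spread more widely in the late stage, and the log2FC was 0.45 ± 0.55 (SE). The gene of the BK pore itself, KCNMA1, had no read in any library.

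KCNAB2 encodes Kvβ2, a cytoplasmic partner of Kv1 channels such as Kv1.3. It was the most even member, with values of 187, 156, 159, 146 and 120 in early and 119, 149, 125, 131 and 258 in late CCH. Its log2FC of -0.02 ± 0.22 (SE) had a 95% interval from -0.51 to 0.46 and turned slightly positive under column total scaling. KCNE3 and KCNE4 encode single-span subunits that modify voltage-gated channels. KCNE3 had values of 209, 137, 33.5, 75.6 and 74.1 in early and 32.8, 80.9, 42.6, 50.1 and 109 in late CCH. Early libraries 1 and 2 were the highest, and the stages overlapped (log2FC -0.62 ± 0.46, SE). KCNE4 ranged from 16.2 to 36.3 in early and from 6.96 to 107 in late CCH (log2FC 0.13 ± 0.61, SE). KCNIP2, which encodes the Kv4 partner KChIP2, ranged from 21.9 to 77.3 in early and from 14.7 to 51.3 in late CCH (log2FC -0.45 ± 0.40, SE).

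The total KCN signal was higher in each late library than in each early library. The summed value of all 69 members was 1259, 1208, 1050, 1332 and 999 in early and 1497, 1483, 1767, 1748 and 1678 in late CCH. Its make-up differed as well and is given as a description, without a test. KCNA3 accounted for 10.4% ± 8.03 of the sum in early and 31.2% ± 6.76 in late CCH (SD, n = 5 each), and KCNK6 for 8.38% ± 2.35 and 16.0% ± 3.96. KCNK13 accounted for 15.1% ± 2.44 in early and 1.16% ± 0.97 in late CCH, whereas KCNJ10 went from 0.40% ± 0.60 to 6.42% ± 2.66. The share of KCNQ1 was 16.9% ± 7.14 in early and 7.91% ± 2.60 in late CCH. In early libraries 1, 2 and 5 the leading member was KCNQ1, and in the other 7 libraries it was KCNA3. Read numbers of a 3′ method do not grow with transcript length, but capture may differ between genes, so that these shares describe reads and not channel molecules.

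**Figure D4:**
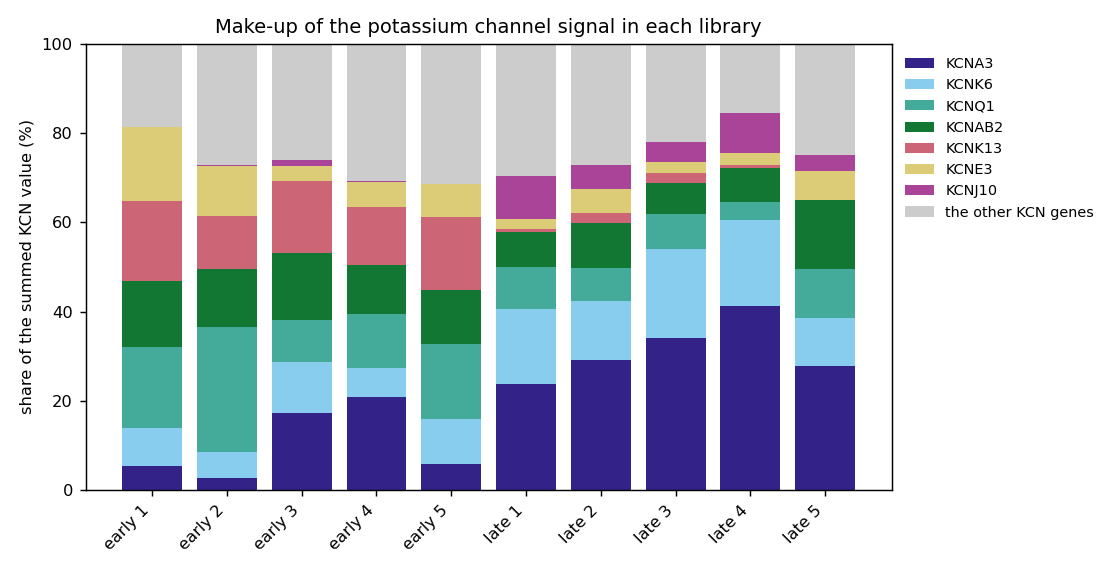
Share (%) of the summed value of all 69 KCN genes taken by 7 members and by the others, in each of the 5 early and 5 late libraries. The KCNK13 share is 11.9% to 17.8% in early and 0.06% to 2.19% in late libraries, and KCNA3 takes 23.7% to 41.3% of the late libraries.

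The expressed members differed in how far libraries of the same stage scattered. The SD within stages on the log2 scale had a median of 0.92 over the 15 members and 0.45 over all genes tested. Their mean values were lower, with a median of 43.3 beside 89.2 over all genes tested. KCNK6 (SD 0.38) and KCNAB2 (SD 0.36) scattered less than the median gene. The SD of KCNK13 (1.21) lay above 92.6% of all genes tested, that of KCNJ10 (1.14) above 91.2% and that of KCNJ12 (2.01) above 99.2%. For KCNK13 this scatter came from the late and for KCNJ10 from the early libraries, those with few reads.

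Among the 54 members that were not expressed, 7 had no read in any library. These were KCND2, KCNG2, KCNJ3, KCNK12, KCNMA1, KCNT1 and KCNU1. A further 22 had 1 to 10 reads over all libraries. A count of 0 limits a gene to 3 reads per library. It refers only to reads counted on its annotation, which was extended by 2 kb downstream in the second count. In 1 or more libraries, 14 of the 54 reached a value of 10. KCND1, KCNT2, KCNMB1, KCNA5, KCNN2 and KCNN3 are named here because of their values. KCND1, which encodes the rapidly inactivating channel Kv4.1, had values of 5.71, 0.930, 0.905, 0 and 5.37 in early and 9.94, 10.5, 12.6, 11.2 and 10.5 in late CCH. Its late values all lay above its early values, at 13 reads in early and 55 in late libraries together. In a fit without the filter on low values its log2FC was 2.12 with an adjusted p of 0.721 (limma, BY). KCNT2, which encodes a sodium-activated channel, had 9 reads in early and 56 in late libraries, and its adjusted p in that fit was 0.476. KCNMB1, the BK beta subunit of smooth muscle, had 5 and 45 reads, of which late libraries 1, 2 and 4 held nearly all. KCNA5, which encodes Kv1.5, had 3 reads in early and 31 in late libraries. The small-conductance channel genes KCNN3 (126 reads in early and 42 in late libraries) and KCNN2 (60 and 15 reads) went the other way, with most early reads in early library 4, and overlapped between the stages.

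Other genes of potassium handling were taken from a list of channel partners, pumps, cotransporters and sensors. Of its 49 genes, 41 were in the table and 27 were tested. LRRC8A was called lower and none was called higher (limma, BY). Over all genes tested, 1.06% were called higher and 1.11% lower. At an unadjusted p of at most 0.05, 7 partner genes were higher and 6 lower, beside 30.9% of all genes tested in either direction. The edgeR quasi-likelihood test on 9 libraries called 0 higher and 0 lower, and the DESeq2 Wald test called 1 higher and 1 lower, the latter being FXYD5. The median log2FC of the 27 was 0.16, beside -0.004 over all genes tested. LRRC8A encodes the essential subunit of the volume-regulated anion channel, which opens together with potassium efflux when swollen cells shrink back. It had values of 216, 184, 180, 221 and 228 in early and 70.6, 94.2, 132, 86.9 and 113 in late CCH. No late library reached an early one, and the log2FC was -1.07 ± 0.19 (SE, adjusted p = 0.0450, limma). The call was kept without late library 3 and lost without any other single library, with an adjusted p of 0.0601 to 0.149. It was also lost with column total scaling, without the filter on low values, in edgeR (adjusted p = 0.125) and in DESeq2, where the log2FC was -0.94.

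Of the 27 partner genes, late values lay above all early values for 2 (5.91% of all genes tested) and below them for 3 (6.05%), 1 of which was LRRC8A. The other 4 were not called. STK39, a kinase of the WNK pathway that regulates potassium-chloride cotransport, had a mean of 19.6 ± 14.9 in early and 99.7 ± 35.3 in late CCH (SD, n = 5 each), with a log2FC of 2.52 and a BY-adjusted p from limma of 0.0644. Its close relative OXSR1 had 224 ± 36.3 and 124 ± 22.4, with a log2FC of -0.85 (adjusted p = 0.0905). ORAI2, a pore subunit of the calcium entry channel that potassium outflow supports in lymphocytes, had 39.6 ± 21.7 and 86.0 ± 13.5 (log2FC 1.30, adjusted p = 0.384). FXYD5, a regulator of the sodium-potassium pump, had 1457 ± 92.4 and 686 ± 234 (log2FC -1.17, adjusted p = 0.0757). NLRP3, the inflammasome sensor that potassium efflux activates, ranged from 125 to 274 in early and from 112 to 134 in late CCH and was not called (adjusted p = 0.516).

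Neighboring genes were examined because reads past the end of a gene had been counted on extended annotations. In UU_Cfam_GSD_1.0, KCNA3, KCNK6, KCNK13, KCNK5, KCNE4 and KCNJ12 had no other gene within 2 kb. KCNJ10 had an unnamed noncoding neighbor that is not among the symbols used here. KCNN4, KCNIP2 and KCNMB3 overlap noncoding genes with mean values of at most 6.19 in either stage. KCNMB4 also overlaps the protein-coding gene LOC111097597, and ARMH3 lies within 2 kb of KCNIP2. Values of these were not analysed here. NPHP4, next to KCNAB2, had a mean of 27.4 in early and 22.9 in late CCH.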

How the data were processed

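The authors trimmed reads with Cutadapt, aligned them with STAR to CanFam3.1 and counted them per gene with featureCounts, a second time with genes extended by 2 kb downstream. Versions are not given in the sources used here. The deposited signal is a normalized read count, which the authors obtained by dividing reads by a DESeq2 size factor per library. Every value above 0 was a whole multiple of a single read (tolerance 0.001 reads). Even sharing of reads that mapped to several places would give fractions, and how these became whole was not examined. The table has 21 columns of values, of which 11 belong to no sample listed for this series and were set aside.

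Expressed genes (10 or more in 5 or more libraries) were tested with limma 3.58.1 (R 4.3.3, mean-variance trend) on log2(value + 1), with BY adjustment over all 12397 genes. Calls required an adjusted p not above 0.05 and an absolute log2FC not below 1. Count tests (edgeR 4.0.16, DESeq2 1.42.0) were alternatives. They were run on 9 libraries. Late library 1 was left out because a read there is worth 0.994, close to 1, although its values were whole multiples too. The samples are from different dogs. Counts and intervals cover counting error and the spread of these libraries only.

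The members and gene lists were chosen with earlier results of these data known. Members named in full are those called, those without overlap between stages, the 5 most abundant, the most abundant of each class, and KCNA3, KCNN4, KCNK6, KCNJ2, KCNAB2, KCNJ10 and KCNK13. The other expressed members are given for completeness. Partner genes are named by call or absence of overlap, and NLRP3 was named after its values were seen. All 69 symbols were found in the RefSeq table of UU_Cfam_GSD_1.0, used only for neighbors.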

Additional observations from a re-analysis of the deposited data

Results flagged for a closer look

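For the named members, the summed KCN value and the numbers of members detected, the library at either end of its stage was compared with its nearest neighbor (gap as a share of the range of 5 libraries). Of 22 such sets, 3 had a share over Dixon's limit of 0.71, and about 1.1 would be expected by chance. KCNAB2 was 258 in late library 5, with the nearest late library at 149 (share 0.783). KCNJ10 was 15.4 in early library 3, which is 17 reads, with the nearest early library at 3.15 (share 0.795). Late library 2 had 21 KCN genes at a value of 10 or higher, with the nearest late library at 16 (share 0.714).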

How the results depend on the processing

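No paired analysis was possible because no column name holds a replicate number and each tumor came from another dog. Among KCN genes, 2 were called higher and 1 lower, and among partner genes 0 and 1. The number of KCN genes called lower was 0 with a pseudocount of 0.5, with robust moderation and in the edgeR test on 9 libraries. That edgeR test also called 0 higher (at an unadjusted p of at most 0.05, 3 higher and 2 lower). On the same 9 libraries, without late library 1, limma likewise called 0 higher and 0 lower. The number called lower was 2 with BH adjustment in limma, which adds KCNMB3 (adjusted p = 0.0363). The number called higher was then 3, with KCNA3 added (adjusted p = 0.00703, limma). KCNA3 was also called with weights per library and in the DESeq2 test. The edgeR and DESeq2 tests on 9 libraries were chosen after the data were seen. Leaving out 1 library gave 0 to 2 KCN genes higher and 0 to 1 lower, and 0 to 1 partner genes in either direction. Partner genes called higher and lower were 3 and 3 with BH adjustment and 1 and 2 with weights. A pseudocount of 5 and DESeq2 called 1 higher, while column total scaling, no filter and edgeR called 0 lower. With a value of at least 10 required in all 10 libraries, 7 members were expressed. The log2FC of KCNAB2, not called in any setting, turned positive with column total scaling (0.067), edgeR (0.13) and DESeq2 (0.12), and ranged from -0.22 to 0.059 when single libraries were left out. That of KCNN4, also never called, turned positive with weights (0.0014) and ranged from -0.37 to 0.15 when single libraries were left out. KCNJ10, KCNK6, KCNK13 and KCNA3 kept their direction in every fit. Their stages did not overlap, so that leaving out a library or changing the pseudocount, adjustment or filter could not reverse it. Over all genes, 131 were called higher and 138 lower, but 169 and 95 with column total scaling. In total 269 were called, compared with 1121 with BH adjustment, 418 with weights and 49 to 260 without single libraries. On the 9 libraries without late library 1, 673 were called with DESeq2, 45 with edgeR and 87 with limma. The cause of these differences was not tested.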
